A study of Mus musculus with 12 samples.

Results

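The phase II conjugation enzymes examined here are the glucuronosyltransferases of the Ugt1a, Ugt2a and Ugt2b families, the glutathione transferases with Gsta, Gstk, Gstm, Gsto, Gstp, Gstt, Gstz or Mgst symbols, and the cytosolic sulfotransferases of mouse intestinal epithelium. They were chosen by gene symbol: 69 of the 30265 symbols in the deposited table matched these family names. Of these, 48 reached 10 or more in 3 or more of the 12 libraries and are described below, among 16577 genes that passed the same filter. They comprise 16 of 19 matching glucuronosyltransferases, 24 of 25 glutathione transferases and 8 of 25 sulfotransferase symbols. The sulfotransferase symbols include the pseudogenes Sult2a-ps1, Sult2a-ps2, Sult2a-ps3 and Sult2a-ps4, all below the filter. The nearest to the filter were Ugt2b1 inside it, whose 3rd highest value was 15.3, and Ugt2a2 outside it, at 4.61. Of the 48, 38 reached 10 in all 12 libraries, while Sult4a1 and Ugt1a10 reached it in the High population alone and so could only pass by being higher there. Gsto2 and Ugt1a8 reached it in 4 libraries, those of High and Low B, and so also passed only through High.

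Phase II enzymes attach a polar group to drugs, dietary compounds, bilirubin, steroids and other lipids, which makes these water-soluble and ready for export. Glucuronosyltransferases sit in the membrane of the endoplasmic reticulum and transfer glucuronic acid from UDP-glucuronate. Glutathione transferases join the tripeptide glutathione to electrophiles, and sulfotransferases move a sulfate from the donor PAPS. The intestinal epithelium carries them as a first barrier to what is swallowed, and the absorptive enterocytes of the villus are known as their main site there.

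The libraries came from intestinal epithelial cells of C57Bl/6 mice with a Sox9-GFP reporter, sorted by reporter level into the populations Sox9 Negative, Sox9 Sublow, Sox9 High and Sox9 Low, called Negative, Sublow, High and Low here. Each had 3 libraries (A, B and C), made from total RNA of 12000 cells after ribosomal RNA was removed, and no treatment is given in the labels. Sox9 is a transcription factor of the crypt. Published work with this reporter places many cycling stem cells in Low, progenitors in Sublow, enteroendocrine and tuft cells in High and differentiated cells in Negative. A gate on one reporter holds several cell types, and in such sorted pools fewer cells of a type and less RNA per cell cannot be told apart. Whether the libraries of a population came from different animals is not stated, and p-values therefore reflect only how far these samples lie from each other, which may be technical.

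The libraries held 11630042 to 17046944 reads assigned to genes. Sox9 itself averaged 604 ± 191 in Negative, 2084 ± 897 in Sublow, 20262 ± 1220.2 in High and 6601 ± 921 in Low (normalised read counts, SD, n = 3 each), the order of the gates. Summed enterocyte markers (10 genes, Sis, Lct and Fabp1 among them) ran from 664299 to 1017380.0 in Negative, 87649 to 537165 in Sublow, 46124 to 60439 in High and 22944 to 57955 in Low. Enteroendocrine markers (8 genes) summed to 269 to 1176 in Negative, 1990.1 to 6055 in Sublow, 367607 to 575771 in High and 37484 to 75313 in Low. Tuft markers (8 genes) summed to 105 to 228, 210.2 to 568, 109299 to 113174 and 9323 to 15979 in the same populations. Paneth markers (6 genes) summed to 45979 to 119621, 12346 to 17999, 487 to 4144 and 18504 to 43378 in these. Goblet markers (7 genes) summed to 51245 to 109827, 343233 to 598675, 8416 to 12274 and 143309 to 487283. The Negative gate thus held markers of more than enterocytes. The Sublow libraries spanned a wide range of enterocyte markers, and Low B held more enterocyte (57955) and goblet (487283) marker reads than Low A (25350.2 and 143309) or Low C (22944 and 170588).

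Most phase II genes were highest in Negative. Summed over the 48 genes, the normalised read counts were 69602, 98076 and 80598 in the Negative libraries, 35219, 59771 and 26408 in Sublow, 12250.4, 12355 and 12636 in High and 11224, 16254 and 13616 in Low. That was 0.438% ± 0.0387 of all reads in Negative, 0.259% ± 0.0927 in Sublow, 0.0929% ± 0.00160 in High and 0.108% ± 0.0177 in Low (SD, n = 3 each). The 3 Negative libraries lay above all others, the Sublow libraries came next, and the High and Low libraries overlapped. Of the 48 genes, 35 had their highest mean in Negative, 1 in Sublow (Ugt2b1), 9 in High and 3 in Low, while among all 16577 genes 33.4% peaked in Negative and 35.7% in High.

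Differences were tested with limma on log2(value + 1), a scale on which changes of genes with few reads are understated, with Benjamini-Hochberg adjustment over all 16577 genes. A gene is said to be called, higher or lower where its adjusted p was below 0.05. By the F-test over the 4 populations 47 of 48 genes were called, against 69.5% of all genes, and the other was Ugt2b38. Against Low, Negative was higher in 38 genes and lower in 6, where 26.8% of all genes were higher and 30.3% lower. The median log2 difference was 1.84 for the 48 genes and -0.055 for all genes. With every library scaled to the same total, the median of all genes moved to -0.60 and that of the 48 to 1.29, with 30 higher and 8 lower. The split over all genes was then 2441 higher and 8050 lower, against 4446 higher and 5028 lower with the deposited scaling. Against High, Negative was higher in 35 genes and lower in 8 (all genes: 25.8% and 28.8%). High against Low went mostly the other way, with 10 genes higher and 19 lower in High (all genes: 23.6% and 19.3%), and 12 lower when Low B was left out. All measured stem (6 of 6), cycling (6 of 6), goblet (7 of 7) and Paneth (6 of 6) markers were also lower in High than in Low, with goblet sums of 8416 to 12274 in High and 143309 to 487283 in Low, Paneth sums of 487 to 4144 in High and 18504 to 43378 in Low, stem sums of 4049.7 to 9434 in High and 60694 to 80144 in Low, and cycling sums of 2221 to 4240.1 in High and 33242 to 35873 in Low. Their part in the lower conjugation enzymes was not tested. The comparisons with Low share its 3 libraries.

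**Figure D1:**
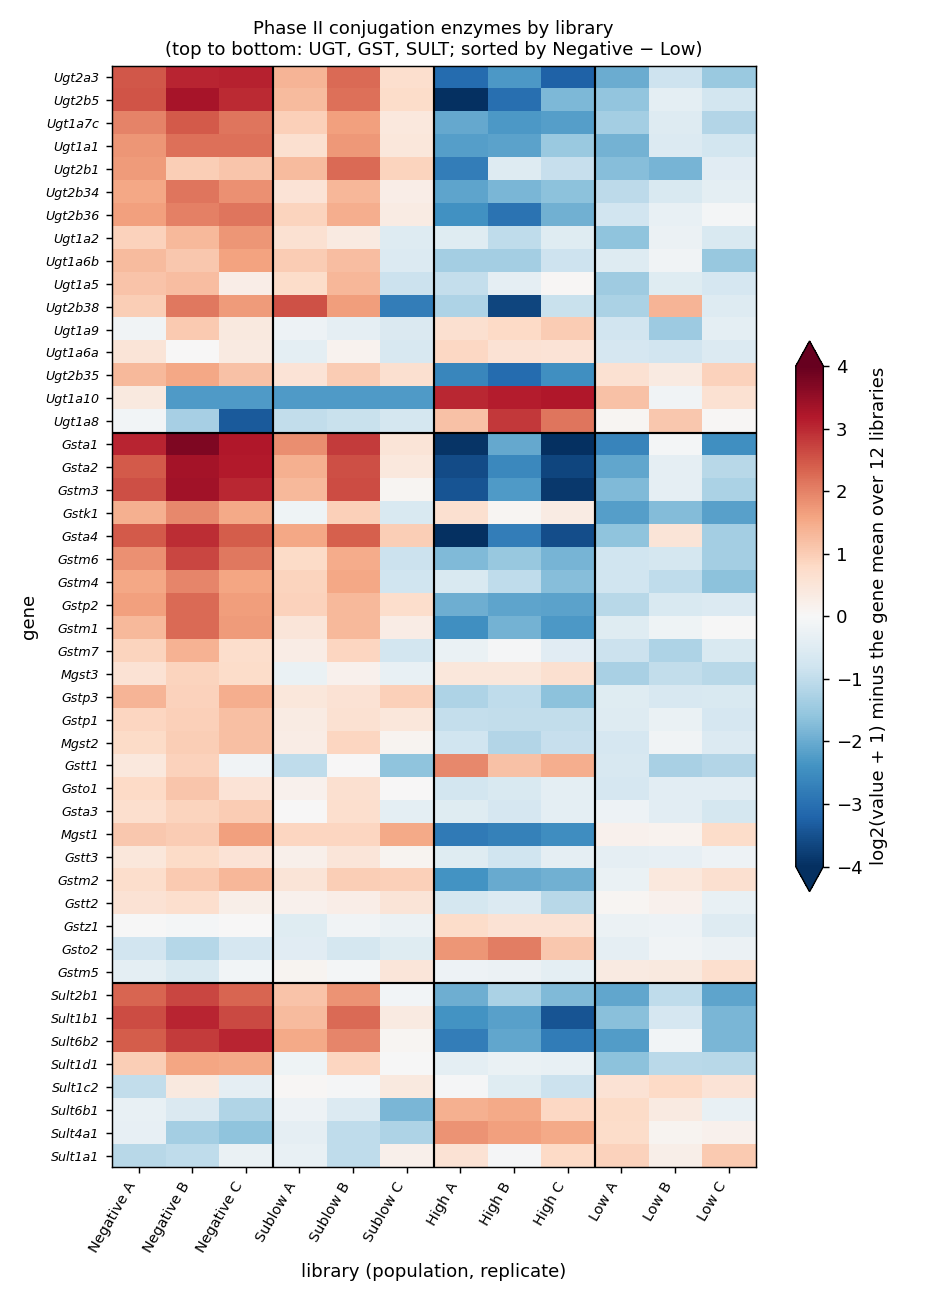
Level of each of the 48 genes (rows, grouped by class and sorted by the difference of Negative from Low) in the 12 libraries (columns), as log2(value + 1) minus the gene's mean over the libraries, with red above and blue below that mean. Most rows are red in the 3 Negative libraries and blue in High, while Ugt1a10, Ugt1a8, Gstt1, Gsto2, Sult6b1 and Sult4a1 are red in the 3 High libraries.

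Among the 16 glucuronosyltransferases, 13 were higher and 2, Ugt1a8 and Ugt1a10, lower in Negative than in Low (median log2 difference 2.10, all genes: 26.8% higher and 30.3% lower). The calls of Ugt1a8 and Ugt1a10 were lost with edgeR (adjusted p = 0.0747 and 0.148), in a fit of the 6 Negative and Low libraries alone (0.0701 and 0.0873) and without Negative B, Negative C or Low A (adjusted p from 0.0505 to 0.13). That of Ugt1a8 was also lost without Low B (0.113) and with no filter on low values (0.0551), and that of Ugt1a10 without Low C (0.0721) and with DESeq2 (0.102). Ugt2b34, a member of the steroid- and drug-conjugating Ugt2b family, measured 8843, 13279 and 10828 in the Negative libraries, 4404, 7673 and 3619 in Sublow, 702, 859.7 and 971 in High and 1469, 1985 and 2321 in Low. All Negative libraries lay above all Sublow libraries, and these above all Low and all High libraries. Negative exceeded Low (log2 difference 2.52, SE 0.27, adjusted p = 1.41e-05), and High lay below Low (log2 difference -1.18, SE 0.27, adjusted p = 0.00359). Ugt2a3, whose human counterpart glucuronidates bile acids, measured 1327, 1982 and 2011 in the Negative libraries, 611, 1145 and 381 in Sublow, 27.1, 47.0 and 24.5 in High and 58.8, 133 and 84.8 in Low. Its populations followed the same order without overlap, and its difference of Negative from Low was the largest among the 16 genes (log2 difference 4.30, SE 0.40, adjusted p = 7.84e-06). Ugt2b5 came next (3.82, adjusted p = 0.000811), at 253, 439.8 and 355 in the Negative libraries, 108, 205 and 73.8 in Sublow, 0, 4.61 and 11.8 in High and 14.2, 33.4 and 26.2 in Low. In High, Ugt2b5 lay below every Low library (-2.54 against Low, adjusted p = 0.0149, and 0.0536 without Low B), as Ugt2a3 did (-1.44, adjusted p = 0.0118, and 0.054 without Low B).

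Ugt2b35 had another pattern. It measured 509, 614 and 474 in the Negative libraries, 307, 419 and 322 in Sublow, 33.4, 24.0 and 37.2 in High and 317, 268 and 395 in Low. Its level in High was far below each other population, with log2 differences of 4.05 for Negative against High (adjusted p = 1.95e-08), 3.44 for Sublow against High (adjusted p = 1.28e-07) and -3.34 for High against Low (adjusted p = 9.37e-07). Negative against Low differed by 0.71 (adjusted p = 0.0131), a call lost without Negative B (0.0564), without Low B (0.0616) and with equal totals (0.546). Ugt2b36 was higher in Negative than in Low by 2.31 and lower in High than in Low (-2.06) on the log2 scale, at means of 112, 56.2, 4.68 and 22.1 in Negative, Sublow, High and Low. Ugt2b1 was rare, with 40 reads in Negative, 56 in Sublow, 7 in High and 7 in Low. Summed over the libraries and adjusted for depth, Negative was 7.73-fold above Low (95% exact counting interval 3.43 to 20.5). Ugt2b38 varied most within populations, from 0.879 to 73.5 in Sublow, and shares 34.1% of its 50-base windows with Ugt2b5, so reads of the pair can be confused.

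The 9 Ugt1a genes lie head to tail in one locus, each with its own first exon and promoter joined to common exons, so that between 54.2% and 96.0% of the 50-base windows in the transcripts of each also occur in transcripts of another gene (GENCODE M21). How the authors divided such reads is not given in the sources used here, and the values of these genes are uncertain to that extent. Within the locus the genes did not move together. Ugt1a7c measured 5429, 7405 and 5944 in the Negative libraries, 2624, 4248 and 1831 in Sublow, 326, 278 and 297 in High and 524, 961 and 605 in Low, and Negative lay above every other library (log2 difference 3.20, SE 0.28, adjusted p = 5.8e-06 for Negative against Low). Ugt1a1, the enzyme that conjugates bilirubin, measured 2471, 3365 and 3335 in the Negative libraries, 1151, 2443 and 996 in Sublow, 159, 166 and 259 in High and 197, 494 and 437 in Low, again with the 3 Negative libraries above all others, though Sublow B came close to Negative A (log2 difference 3.11, SE 0.38, adjusted p = 3.16e-05 for Negative against Low).

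Ugt1a6a, whose human counterpart UGT1A6 conjugates small phenols and serotonin, had its highest mean in High. It measured 486, 343 and 438 in the Negative libraries, 256, 375 and 217 in Sublow, 603, 509.6 and 492 in High and 214, 199.5 and 231 in Low. High exceeded Low without overlap (log2 difference 1.31, SE 0.20, adjusted p = 0.000297), Sublow lay below High (-0.95, adjusted p = 0.00188), and Negative, whose libraries all lay under those of High, did not pass the test against High (log2 difference -0.35, SE 0.20, adjusted p = 0.169). Ugt1a9 also had its highest mean in High. Its means were 90.5 ± 38.3 in Negative, 48.5 ± 6.00 in Sublow, 113 ± 15.6 in High and 35.6 ± 12.7 in Low. High lay above Low by 1.69 (adjusted p = 0.00154), while Negative B (132) exceeded every High library (98.3, 111 and 129). Ugt1a10 was found almost solely in High, where it had 138 reads, against 5 in Negative, 0 in Sublow and 21 in Low. From summed reads, Sublow was at least 41.0-fold lower than High (against a floor of 3 counts over the population), and Negative was 20.2-fold lower than High (95% counting interval 8.46 to 63.2). Ugt1a8 had 10 reads in Negative, 14 in Sublow, 153 in High and 45 in Low, and Negative was 11.2-fold below High (interval 5.93 to 23.8). Intervals and floors cover counting error only. Ugt1a10 and Ugt1a8 passed the filter only through their High libraries, so a high level there was a condition of being listed.

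As a share of the reads assigned to the 9 genes, with no adjustment for length, Ugt1a7c made up 60.3% ± 2.76 in Negative, 56.9% ± 1.35 in Sublow, 22.0% ± 1.76 in High and 46.7% ± 4.69 in Low (SD, n = 3 each). Ugt1a6a made up 4.19% ± 1.25 in Negative, 5.78% ± 0.902 in Sublow, 39.3% ± 5.09 in High and 15.3% ± 4.41 in Low. The High libraries lay apart from all others for both genes. The remaining members of the locus, Ugt1a2, Ugt1a5 and Ugt1a6b, were higher in Negative than in Low by 2.14, 1.75 and 2.05 and were not called in High against Low (0.16, 0.44 and -0.45). In M21, 96.0% of the windows of Ugt1a6a occur in another gene, most of them in Ugt1a7c, so the reads of this pair in particular cannot be kept apart with certainty.

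**Figure D2:**
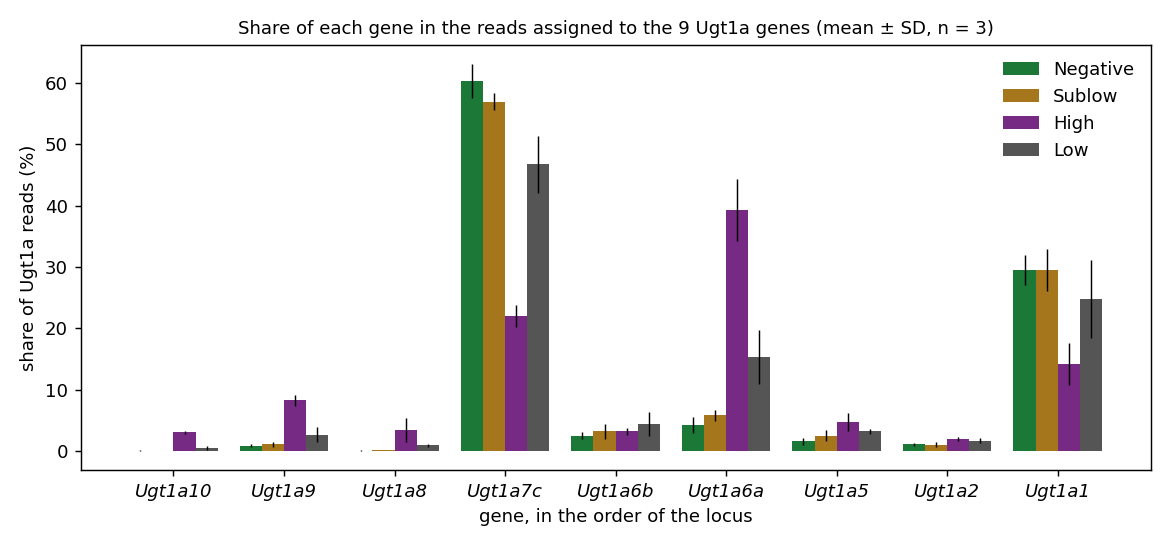
Share of each Ugt1a gene (x axis, in the order of the locus) in the reads assigned to the 9 Ugt1a genes (y axis, %), as mean ± SD of 3 libraries per population. Ugt1a7c holds the tallest bars in Negative, Sublow and Low, and Ugt1a6a the tallest bar in High.

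Because genes of one locus went apart, the 300 bases around their starts (250 before and 50 after, RefSeq, GRCm38.p6) are shown for Ugt1a10 (chr1:88055161-88055460, + strand), Ugt1a9 (chr1:88070529-88070828, + strand), Ugt1a7c (chr1:88094751-88095050, + strand), Ugt1a6a (chr1:88134559-88134858, + strand) and Ugt1a1 (chr1:88211709-88212008, + strand). Capitals mark the 50 bases that follow the annotated start, where the first exon of each gene begins.
Ugt1a10: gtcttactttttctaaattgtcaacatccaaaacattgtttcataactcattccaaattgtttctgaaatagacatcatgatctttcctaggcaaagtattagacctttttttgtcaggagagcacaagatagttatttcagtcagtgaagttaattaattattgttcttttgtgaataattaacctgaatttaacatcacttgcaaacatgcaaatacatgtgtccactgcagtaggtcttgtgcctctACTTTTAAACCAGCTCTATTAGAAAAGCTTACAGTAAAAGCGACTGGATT
Ugt1a9: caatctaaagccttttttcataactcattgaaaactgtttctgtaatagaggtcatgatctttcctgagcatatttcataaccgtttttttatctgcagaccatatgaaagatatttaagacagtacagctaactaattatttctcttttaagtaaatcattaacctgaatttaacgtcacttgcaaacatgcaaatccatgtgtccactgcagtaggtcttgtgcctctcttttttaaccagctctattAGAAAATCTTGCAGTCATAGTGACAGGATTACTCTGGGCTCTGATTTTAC
Ugt1a7c: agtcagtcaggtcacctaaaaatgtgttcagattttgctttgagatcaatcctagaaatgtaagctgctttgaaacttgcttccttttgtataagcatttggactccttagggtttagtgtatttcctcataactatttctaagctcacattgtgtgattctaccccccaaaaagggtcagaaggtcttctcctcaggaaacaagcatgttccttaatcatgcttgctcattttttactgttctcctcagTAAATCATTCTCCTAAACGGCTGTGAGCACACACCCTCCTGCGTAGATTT
Ugt1a6a: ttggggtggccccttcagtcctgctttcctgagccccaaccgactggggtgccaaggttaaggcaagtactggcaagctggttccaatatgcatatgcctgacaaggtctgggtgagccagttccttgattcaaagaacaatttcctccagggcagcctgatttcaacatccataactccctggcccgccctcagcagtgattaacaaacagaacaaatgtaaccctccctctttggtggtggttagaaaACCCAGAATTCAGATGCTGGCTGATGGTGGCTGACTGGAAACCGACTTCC
Ugt1a1: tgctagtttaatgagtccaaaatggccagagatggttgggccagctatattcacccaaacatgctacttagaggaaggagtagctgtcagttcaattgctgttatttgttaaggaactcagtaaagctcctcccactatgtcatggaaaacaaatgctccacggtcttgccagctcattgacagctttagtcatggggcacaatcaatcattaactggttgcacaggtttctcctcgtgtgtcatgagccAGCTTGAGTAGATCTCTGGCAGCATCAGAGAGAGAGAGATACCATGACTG

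Windows were at hand for 44 of the 48 genes, 55 in all, and were searched on both strands for a few short motifs. The HNF4 letters CAAAGTCCA were found in Sult1b1 alone (1.82% of windows, against 0.475% of all 32851 windows). The GATA letters AGATAA were in 14.5% (all: 11.2%), with Ugt1a9 the one gene of the locus among them. The antioxidant response element TGACNNNGC was in 7.27% (all: 12.4%). The dioxin response element GCGTG was in 25.5% (all: 32.4%), with Ugt1a5 and Ugt1a8 of the locus among them, and the TATA box TATAAA in 12.7% (all: 13.6%). These are matches of letters, and no binding was measured.

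Of the 24 glutathione transferases, 21 were higher in Negative than in Low and 1, Gstm5, was lower (median log2 difference 1.66, all genes: 26.8% higher and 30.3% lower). The alpha class conjugates products of lipid peroxidation and many drugs. Gsta1 measured 8897, 14249 and 9995 in the Negative libraries, 3942, 7412 and 1525 in Sublow, 69.5, 261 and 65.0 in High and 173, 1025 and 193 in Low. Every Negative library exceeded every other library, while Low B lay well above Low A and Low C (log2 difference 5.05, SE 0.73, adjusted p = 0.000102 for Negative against Low). Gsta2 measured 305, 558 and 503 in the Negative libraries, 146, 329 and 73.8 in Sublow, 3.61, 8.29 and 3.38 in High and 11.98, 42.0 and 24.6 in Low, and Sublow B lay above Negative A (4.19 for Negative against Low, adjusted p = 5.72e-05). Of the windows of Gsta1, 89.7% occur in another gene, most in Gm3776, and of those of Gsta2 47.4%, most in Gsta1, so the reads of this group cannot be placed with certainty. Gsta4, which acts on 4-hydroxynonenal and shares no window with other genes, measured 2610.4, 3634 and 2528 in the Negative libraries, 1378, 2504 and 942 in Sublow, 28.0, 69.1 and 39.7 in High and 156, 674 and 185 in Low. It was higher in Negative than in Low by 3.42 (adjusted p = 0.000139) and lower in High than in Low (-2.63, adjusted p = 0.00145), with all High libraries below all Low libraries. Gsta3 differed least, by 1.31 for Negative against Low (adjusted p = 0.00183).

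The mu class is a cluster of 7 neighbouring genes, of which 6 were higher and Gstm5 lower in Negative than in Low. Gstm3 measured 3098, 5342 and 4179.8 in the Negative libraries, 1257, 3181 and 546 in Sublow, 46.0, 106 and 34.6 in High and 151, 404 and 215 in Low, with Negative above Low by 4.11 ± 0.58 (adjusted p = 8.57e-05) and High below Low (-2.07, adjusted p = 0.0121, and 0.0538 without Low B and 0.0548 without High C). Gstm1 measured 949, 1824 and 1237 in the Negative libraries, 539, 931 and 470.1 in Sublow, 69.5, 102 and 76.9 in High and 270.1, 340.0 and 374 in Low. Gstm6 measured 723, 1309 and 876 in the Negative libraries, 345, 570.2 and 112 in Sublow, 59.5, 70.0 and 54.9 in High and 117, 124 and 77.7 in Low. For both, all Negative libraries lay above all others, with Sublow B just short of Negative A for Gstm1 (1.98 and 3.16 for Negative against Low, adjusted p = 0.0001 and 0.000106). Gstm5 measured 109.8, 92.3 and 131 in the Negative libraries, 153, 135 and 201 in Sublow, 124, 121 and 108 in High and 184, 189 and 229.8 in Low. It was lower than in Low in Negative (log2 difference -0.86, SE 0.20, adjusted p = 0.00297) and in High (-0.77, adjusted p = 0.00852), with no overlap with Low in either. As a share of mu-class reads, Gstm3 made up 55.4% ± 1.44 in Negative, 44.0% ± 11.7 in Sublow, 11.4% ± 5.13 in High and 21.6% ± 7.99 in Low. Gstm5 made up 1.55% ± 0.524, 6.56% ± 4.91, 23.0% ± 2.84 and 17.7% ± 2.90 in the same populations. Gstm2, Gstm4 and Gstm7 were higher in Negative than in Low by 0.76, 2.85 and 1.90. The call of Gstm2 was lost without Negative B (0.0703), Negative C (0.113) or Low A (0.143), and with equal totals (0.535).

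**Figure D3:**
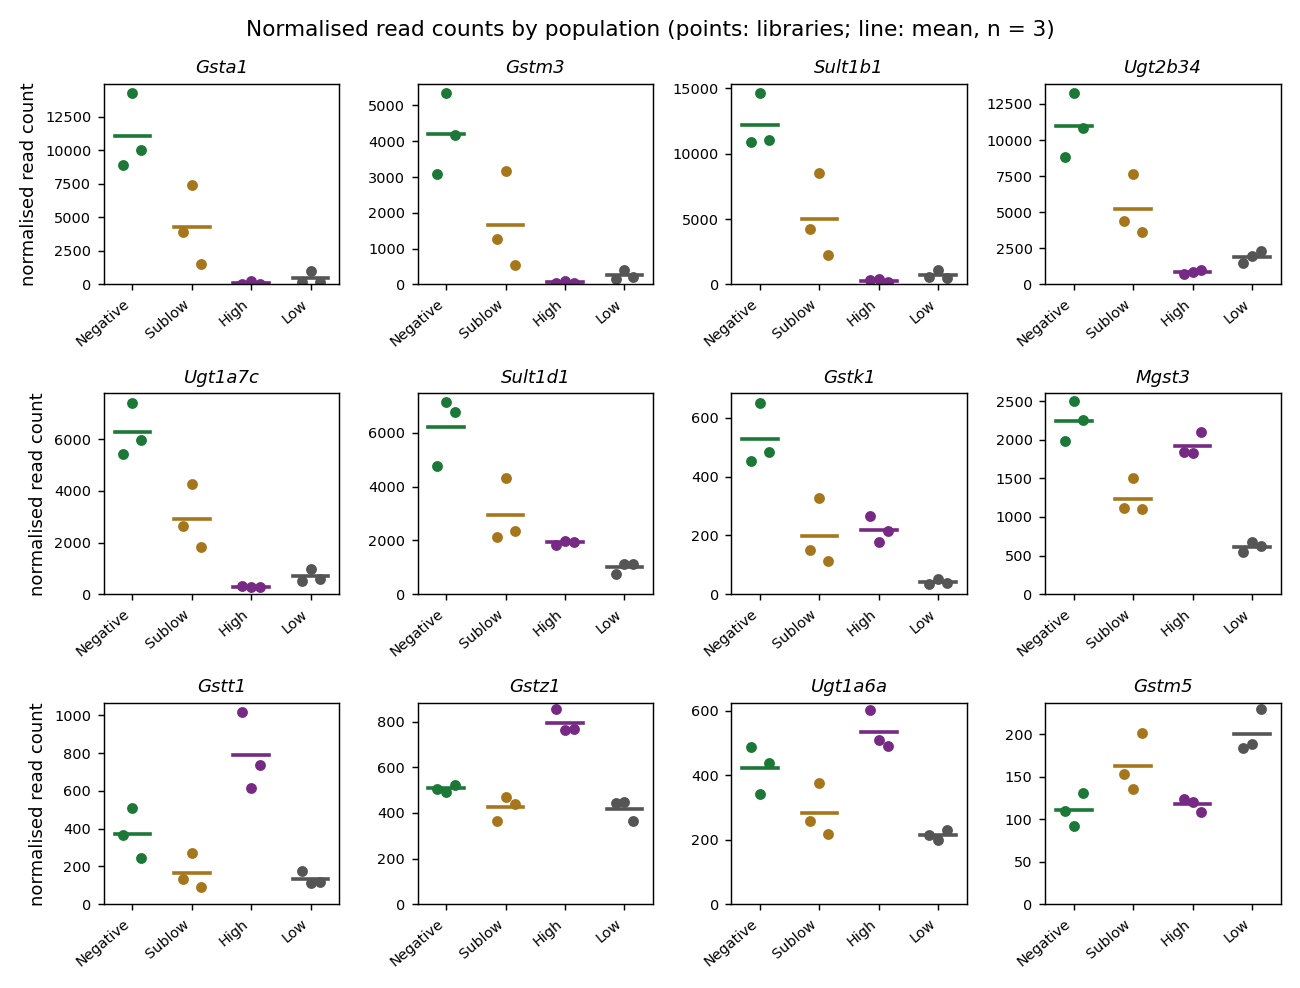
Normalised read counts (y axes, from 0) of 12 of the genes in the 3 libraries of each population (points) with their mean (line). Gsta1, Gstm3, Sult1b1, Ugt2b34, Ugt1a7c and Sult1d1 are highest in Negative, Mgst3 and Gstk1 are above Low in both Negative and High, Gstt1, Gstz1 and Ugt1a6a have their highest mean in High, and Gstm5 in Low.

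The pi class, encoded in mouse by a small cluster, was higher in Negative throughout. Gstp1 measured 1956, 2099 and 2505 in the Negative libraries, 1345, 1643 and 1491 in Sublow, 559, 542 and 541 in High and 747, 896 and 671 in Low. Gstp2 measured 899.7, 1402 and 930.0 in the Negative libraries, 544, 714 and 468 in Sublow, 73.1, 66.3 and 64.2 in High and 132, 188 and 196 in Low. Both ran in the order Negative, Sublow, Low and High without overlap between neighbours (1.504 and 2.63 for Negative against Low, adjusted p = 7.84e-06 and 4.8e-06). High lay below Low (-0.48 and -1.31, adjusted p = 0.0147 and 0.000559). The High call of Gstp1 was lost without Low B (0.0726). The pair share 51.0% of the windows of Gstp1. Gstp3 was higher in Negative than in Low by 1.82 (adjusted p = 0.000109). Gsto1, an omega-class enzyme that reduces dehydroascorbate, measured 4456, 5472 and 3685 in the Negative libraries, 2873, 3958 and 2547 in Sublow, 1525, 1654 and 1950.5 in High and 1607, 1893 and 1899 in Low. Its High and Low libraries overlapped (-0.077, adjusted p = 0.772), Sublow B exceeded Negative C, and Negative exceeded Low by 1.32 (adjusted p = 8.77e-05).

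Per kilobase of exonic length, the levels in Negative were highest for Gsta1 (12625 ± 3231 normalised reads per kilobase), Sult1b1 (4387 ± 758), Gsto1 (3839 ± 758) and Gstm3 (3209 ± 856), and neighbours among the last 3 did not differ beyond their SD. In High, Mgst3 (1749.9 ± 138) and Gsto1 (1446 ± 185) came first, followed by Sult1d1 (797 ± 32.5), while Gsta1 was at 151 ± 128. Lengths are from GENCODE M21, which may differ from the annotation the authors used.

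Of the 24 glutathione transferases, 5 (20.8%) were higher and 11 (45.8%) lower in High than in Low, against 23.6% and 19.3% of all genes. Gstk1, the kappa enzyme of mitochondria and peroxisomes, measured 453, 652 and 484 in the Negative libraries, 150.1, 329 and 112 in Sublow, 265, 179 and 214 in High and 35.9, 50.5 and 37.2 in Low. Each population lay above Low without overlap (3.65, 2.09 and 2.38 for Negative, Sublow and High against Low, adjusted p = 7.54e-06, 0.00134 and 0.000156). The microsomal enzymes split. Mgst3 measured 1989.5, 2500.5 and 2250.2 in the Negative libraries, 1116, 1500.4 and 1100.2 in Sublow, 1836, 1829 and 2094 in High and 550.1, 680.0 and 619.7 in Low. Mgst1, which also reduces lipid peroxides, measured 1108, 1066 and 1649 in the Negative libraries, 951, 953 and 1486 in Sublow, 73.1, 80.2 and 92.1 in High and 597, 574 and 878 in Low. Mgst3 was higher in High than in Low (1.64, adjusted p = 8.17e-06) and Mgst1 lower (-3.03, adjusted p = 2.77e-06), each without overlap. As a share of the reads of the 3 Mgst genes, Mgst3 made up 47.1% ± 4.96 in Negative, 38.1% ± 4.11 in Sublow, 82.4% ± 1.43 in High and 34.9% ± 2.56 in Low. Mgst2, which can make leukotriene C4, was not called in High against Low (-0.51, adjusted p = 0.0696) and was higher in Negative than in Low (1.44, adjusted p = 0.000105).

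Of the 48 genes, 5 were higher in High than in each of the other 3 populations, against 15.6% of all genes. They were Gsto2, Gstt1, Gstz1, Sult4a1 and Ugt1a10. Gsto2, Sult4a1 and Ugt1a10 passed the filter only through High, so a high level there was a condition of being listed. The call of Sult4a1 in High against Low was lost in 11 of 23 alternative settings. Gstt1, a theta-class enzyme that acts on small halogenated compounds, measured 364, 511 and 243 in the Negative libraries, 133, 273 and 88.8 in Sublow, 1018, 617 and 736 in High and 173, 110.5 and 119 in Low. High lay above every other library, with log2 differences of -1.12 for Negative against High (adjusted p = 0.0258) and 2.55 for High against Low (adjusted p = 0.000236). The difference between Negative and High was not called without Negative A (0.0532), Negative C (0.11), High A (0.099) or High C (0.053). Its neighbours in the cluster did not share this: Gstt2 was lower in High than in Low (-0.76, adjusted p = 0.0073). It was higher in Negative than in Low by 0.51 (adjusted p = 0.0379, but -0.046 with equal totals and not called without Negative A, Negative B, Low A or Low C, at adjusted p from 0.0587 to 0.146). Gstt3 was not called in High against Low (-0.25, adjusted p = 0.243). Gstt1 made up 28.8% ± 5.38 of theta-class reads in Negative, 17.4% ± 7.69 in Sublow, 66.4% ± 4.88 in High and 19.6% ± 4.00 in Low.

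Gstz1, the maleylacetoacetate isomerase of tyrosine breakdown, measured 506, 494 and 524 in the Negative libraries, 366, 471 and 439 in Sublow, 856, 766 and 766 in High and 442, 449.6 and 363 in Low. The 3 High libraries stood above all others (log2 difference 0.93, SE 0.14, adjusted p = 0.000204 for High against Low, and -0.65 for Negative against High, adjusted p = 0.00147). Pomt2, which overlaps it on the other strand, was also highest in High, at 216 ± 2.88 in Negative, 215 ± 25.9 in Sublow, 518 ± 134 in High and 255 ± 16.4 in Low. Gsto2, the 2nd omega enzyme, measured 6.34, 4.61 and 6.85 in the Negative libraries, 8.17, 6.71 and 7.91 in Sublow, 41.5, 50.7 and 25.3 in High and 8.71, 10.3 and 9.51 in Low, with High above Low by 1.88 (adjusted p = 0.00134). As Gsto2 passed the filter only through High, a high level there was a condition of being listed. It and Gsto1 overlap Cfap43 on the other strand, which measured 11.1 ± 6.70 in Negative, 33.0 ± 5.06 in Sublow, 78.2 ± 12.9 in High and 52.5 ± 6.18 in Low. On the same strand, Gstt3 overlaps Gm20441, which shares 20.2% of its windows, and Mgst2 overlaps Gm37261. The overlaps are of whole gene spans, introns included, and for partners on the other strand an overlap of exons was not checked. As nothing in the labels says that counting used strand, reads of Gstz1 and Gsto2 may include some from Pomt2 and Cfap43. The same holds for Sult2b1 with Lmtk3 and Gm31597, Gstm5 with 4933431E20Rik, Gsta3 with Gm28836, Sult1a1 with Sgf29, Sult6b1 with Gm26637, Gstz1 with Gm6566, and the Ugt1a genes with Gm20528 and, but for Ugt1a1, Dnajb3. The enteroendocrine and tuft cell markers given above were likewise highest in High (8 of 8 called higher against Low in both lists), and their part in these differences was not tested.

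**Figure D4:**
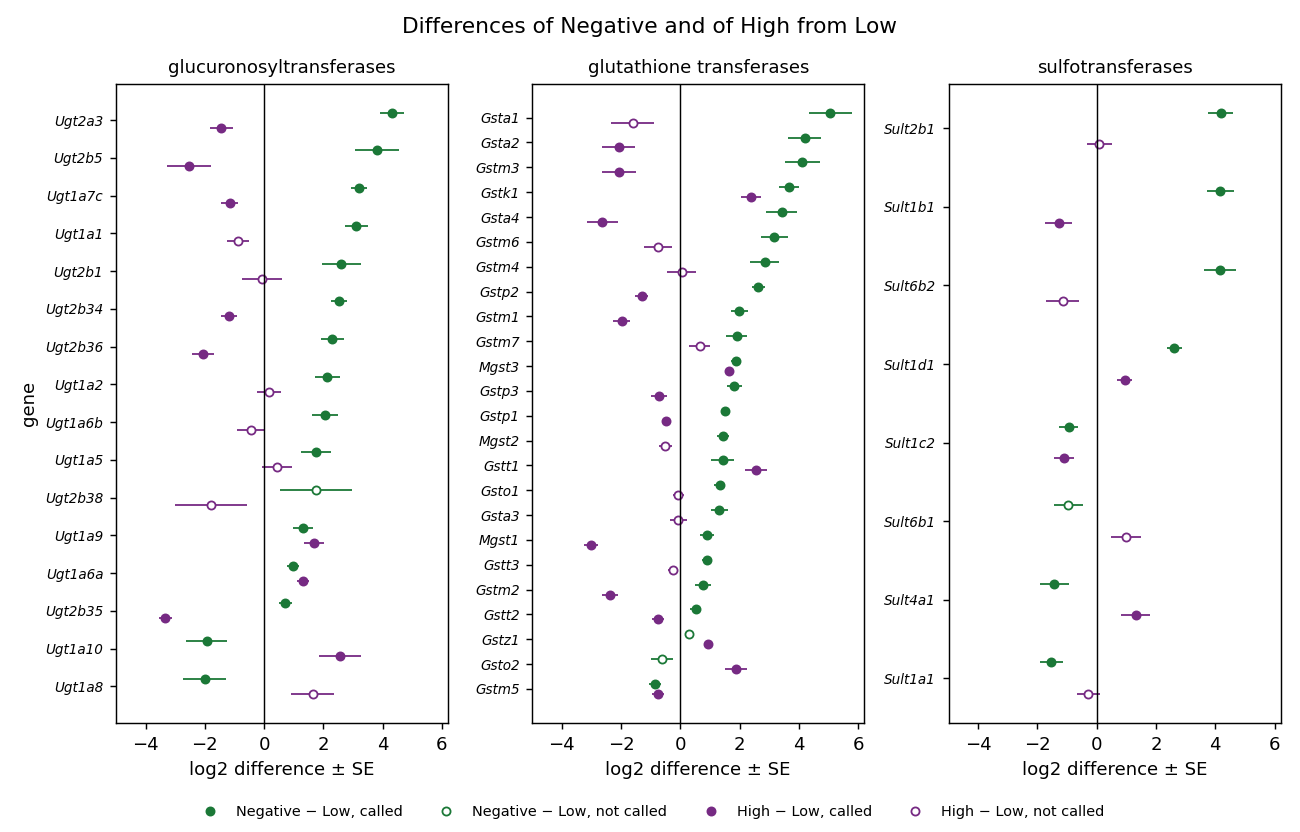
Log2 difference of Negative from Low (green) and of High from Low (purple) for each gene, with its standard error, in 3 panels by class (x axis, log2; filled points, adjusted p below 0.05; open points, not called). Ugt2a3, Ugt2b5, Ugt2b34, Gsta4, Gstm3, Gstp2 and Sult1b1 have the green point right of 0 and the purple one left of it, while Gstk1, Mgst3, Gstt1, Ugt1a9, Ugt1a6a and Sult1d1 have both at the right.

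Among the 8 sulfotransferases, 4 were higher and 3 lower in Negative than in Low (all genes: 26.8% and 30.3%). The lower genes were Sult1a1, Sult1c2 and Sult4a1. The call of Sult4a1 was lost with DESeq2 (adjusted p = 0.08), among other settings. It was also lost in a limma fit of the 6 Negative and Low libraries alone (adjusted p = 0.0614). Sult1b1, which sulfates thyroid hormones and phenols, measured 10884, 14629 and 11078 in the Negative libraries, 4264, 8523 and 2256 in Sublow, 336, 393 and 159.7 in High and 550.1, 1098 and 498 in Low. The Negative libraries lay above all Sublow libraries, these above all Low libraries, and all Low above all High (log2 difference 4.17, SE 0.46, adjusted p = 1.73e-05 for Negative against Low). The difference of High from Low (-1.28, adjusted p = 0.0403) was lost in 9 of 24 alternative settings, 0.167 without High C and 0.157 without Low B among them. Its neighbour Sult1d1, which in mouse sulfates dopamine and other catechols, measured 4767, 7140.1 and 6779 in the Negative libraries, 2140.1, 4330.1 and 2349.7 in Sublow, 1839, 1988 and 1956 in High and 771, 1143 and 1119 in Low. Here High lay above Low without overlap (0.95, adjusted p = 0.00932), and Negative above both (2.62 against Low, adjusted p = 9.09e-06, and 1.67 against High, adjusted p = 0.000114). Of the reads of the 8 genes, Sult1d1 made up 28.9% ± 2.83 in Negative, 34.1% ± 9.62 in Sublow, 77.8% ± 4.63 in High and 49.0% ± 8.43 in Low. Sult1b1 made up 56.8% ± 4.17, 52.2% ± 7.77, 11.8% ± 4.35 and 33.1% ± 6.95 in the same populations.

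Sult2b1, which sulfates cholesterol and other hydroxysteroids, measured 905, 1150.3 and 914 in the Negative libraries, 399, 624 and 168 in Sublow, 46.0, 74.6 and 52.4 in High and 41.4, 88.2 and 41.2 in Low. Its High and Low libraries overlapped (0.083, adjusted p = 0.895), and Negative exceeded Low by 4.18 ± 0.42 (adjusted p = 1.13e-05). Sult6b2 measured 1532, 2011 and 2404 in the Negative libraries, 829, 1120.2 and 301 in Sublow, 41.5, 67.3 and 40.5 in High and 59.9, 265 and 80.8 in Low, with Negative above Low by 4.15 ± 0.54 (adjusted p = 4.98e-05). Sult1a1, a phenol sulfotransferase, was among the few genes lower in Negative. It measured 19.0, 19.99 and 34.2 in the Negative libraries, 33.7, 20.1 and 48.3 in Sublow, 63.2, 40.5 and 73.5 in High and 79.5, 48.8 and 87.2 in Low. Negative lay below Low without overlap (log2 difference -1.53, SE 0.39, adjusted p = 0.00479). Sult1c2 was lower than in Low in Negative (-0.95, adjusted p = 0.0285), at 29.6, 78.4 and 45.6 in the Negative libraries, 61.3, 57.0 and 78.2 in Sublow, 56.8, 41.5 and 32.1 in High and 88.2, 103 and 87.2 in Low, a call lost when any of Negative A, Negative C or the 3 Low libraries was left out (adjusted p from 0.054 to 0.124). Sult4a1, known from brain, had 6 reads in Negative, 8 in Sublow, 66 in High and 24 in Low, and Negative was 8.06-fold lower than High by summed reads (interval 3.51 to 22.7). Sult4a1 passed the filter only through High, so a high level there was a condition of being listed. Sult6b1 averaged 7.25 ± 2.499 in Negative, 6.89 ± 3.87 in Sublow, 30.4 ± 7.44 in High and 15.2 ± 5.60 in Low. The 17 sulfotransferase symbols below the filter include the whole Sult2a group, Sult1c1, Sult1e1 and Sult5a1, with values of at most 8.17 in any library.

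Sublow stood between Low and Negative. Against Low, 27 of the 48 genes were higher in Sublow and 1, Ugt1a10, was lower, though not without Low A (adjusted p = 0.0556). Of all genes, 13.3% were higher and 10.7% lower. Against Sublow, 17 were higher in Negative and none lower by limma, with Gstm5 lower at an unadjusted p below 0.05 and by edgeR and DESeq2 (all genes: 12.7% higher and 15.1% lower). The count of higher genes in Negative against Sublow depended on single libraries. It was 4 without Negative B, 11 without Negative C, 8 without Sublow A, 26 without Sublow B and 7 without Sublow C. It was 0 in a limma fit of these 6 libraries alone, in which 26 of the 48 had an unadjusted p below 0.05. Sublow against High gave 28 higher and 10 lower (all genes: 25.3% and 26.7%).

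Of the 38 genes higher in Negative than in Low, 33 had their highest Sublow value in Sublow B. For 31 the lowest was in Sublow C. The same count over all genes is not given here, so whether the order is particular to these genes is not known. The summed enterocyte markers ran in the same order, at 264675, 537165 and 87649 in Sublow A, B and C, and stem cell markers in the reverse order, at 16048, 7314 and 33864. Across the populations all 10 enterocyte markers were higher in Negative than in Low, and their part in the differences of the conjugation enzymes was not tested. None of the 48 genes was higher in Sublow, or in Low, than in each of the other 3 populations by limma, at an unadjusted p below 0.05, by edgeR or by DESeq2, against 0.0603% and 1.1% of all genes by limma. In Negative it was 14 of 48 by limma, against 9.33% of all genes, with 10 by edgeR, 19 by DESeq2 and 25 at an unadjusted p below 0.05. Each of the 14 needs its call in Negative against Sublow, where 4 of the 48 genes were called without Negative B.

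**Figure D5:**
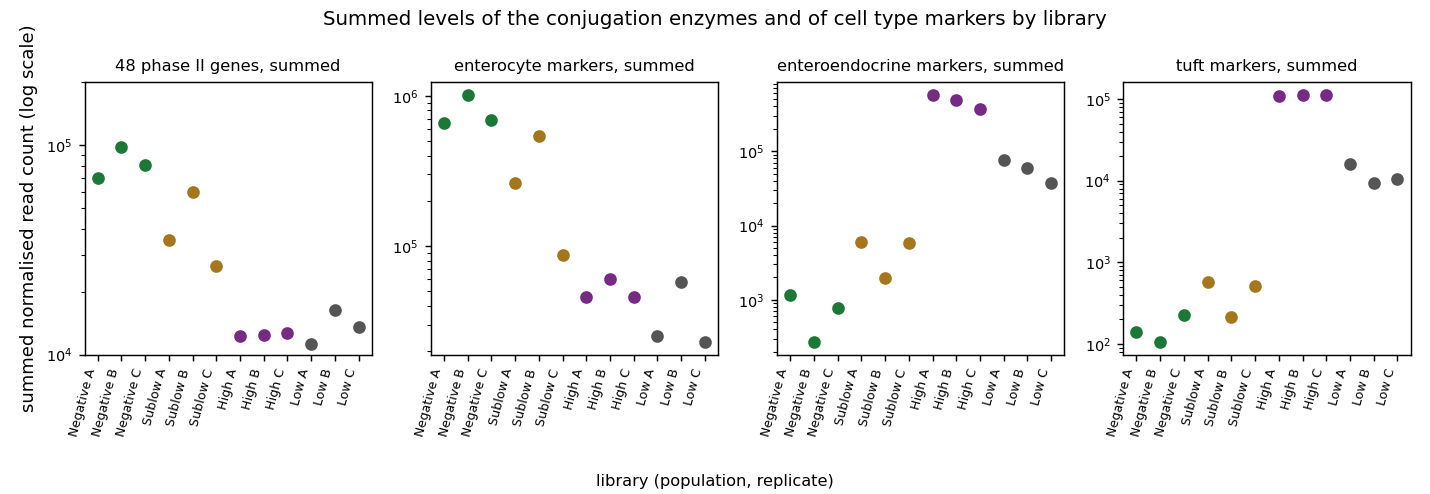
Summed normalised read counts (y axes, log scale) of the 48 conjugation enzymes and of the enterocyte, enteroendocrine and tuft cell marker lists in each of the 12 libraries (x axes; one colour per population). The enzymes and the enterocyte markers are highest in the Negative libraries with Sublow B next, and the enteroendocrine and tuft markers in the High libraries.

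The genes that make the donors of the conjugation reactions were read from lists chosen from general knowledge. The counts stand beside 26.8% of all genes higher and 30.3% lower in Negative than in Low, and 23.6% higher and 19.3% lower in High than in Low. Of 4 measured genes of UDP-glucuronate supply, 3 (Ugp2, Ugdh and Slc35d1) were higher in Negative than in Low. Ugdh, the dehydrogenase that makes UDP-glucuronate, measured 3919.9, 5533 and 3783 in the Negative libraries, 1752, 3163 and 967 in Sublow, 519.6, 578 and 675 in High and 397, 564 and 536 in Low (3.14 for Negative against Low, adjusted p = 1.44e-05). All Negative libraries lay above all others, and the High and Low libraries overlapped. Of 9 genes of sulfate donor supply, 5 were higher in Negative than in Low (Papss2, Slc35b3, Bpnt1, Slc26a1 and Slc26a3) and 1 was lower (Impad1). The pair of PAPS synthases split. Papss2 measured 22676, 31022 and 19768 in the Negative libraries, 10279.7, 17092 and 2310.2 in Sublow, 1441, 1770.1 and 1741 in High and 739.6, 2125 and 630.0 in Low (4.59 for Negative against Low, adjusted p = 5.72e-05). Papss1 was higher in High than in Low (0.96, adjusted p = 0.000293) and was lower in Negative than in High (-0.81, adjusted p = 0.000549). Of 17 genes of glutathione supply and turnover, 9 were higher and 1 (Ggt7) was lower in Negative than in Low. Gclc, the catalytic subunit of the first step of glutathione synthesis, was higher in High than in Low (0.88, adjusted p = 0.0015) and lower in Negative than in High (-1.28, adjusted p = 4.49e-05), at 629 ± 132 in Negative, 658 ± 113 in Sublow, 1517 ± 151 in High and 823 ± 102 in Low.

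Of 8 measured efflux transporters, 5 were higher and 3 lower in Negative than in Low (all genes: 26.8% and 30.3%). Abcc2 (3.60) and Abcg2 (2.16) of the apical membrane were higher, together with Abcc3, Abcc6 and Abcb1a. Abcc1 (-1.66), Abcc4 (-3.49) and Abcc5 were lower. Of 11 enzymes that cleave conjugates or esters, 8 were higher and 1, the beta-glucuronidase gene Gusb (-0.57), lower in Negative than in Low. Of 18 measured genes on a list of other conjugating enzymes and related genes, 6 were higher in Negative than in Low, with the N-acetyltransferase Nat2 at 1.91. Another 7 were lower, with the prostaglandin D synthase Hpgds at -4.44. In High against Low, Hpgds (1.82, adjusted p = 0.00251) and the leukotriene pathway genes Ltc4s and Alox5ap were among the 6 higher, a count that includes Gsto2. Among 21 regulators, 13 were higher and 4 (Cdx1, Foxa1, Foxa2 and Foxa3) lower in Negative than in Low. Nr1i3 (CAR), a receptor that senses foreign compounds, measured 1239, 1738 and 1167 in the Negative libraries, 395, 931 and 149 in Sublow, 56.8, 58.1 and 48.1 in High and 35.9, 81.4 and 31.7 in Low. Its relative Nr1i2 (PXR) measured 1757, 2333 and 2146 in the Negative libraries, 1130.3, 1399 and 743 in Sublow, 608, 614 and 495 in High and 574, 666 and 508 in Low. Both were higher in Negative than in Low (4.88 and 1.83, adjusted p = 1.58e-05 and 2.37e-05). Nfe2l2 (NRF2), the factor of the antioxidant response, was higher in Negative than in Low (1.86, adjusted p = 1.93e-05) and lower in High than in Low (-0.70, adjusted p = 0.0165). Of 16 NRF2 targets outside the 48 genes, 10 were higher in Negative than in Low, with Gclm, Nqo1, Srxn1 and Txnrd1 among them, and in High against Low 5 were higher and 5 lower (all genes: 23.6% and 19.3%). Of 4 measured AHR targets 2 were higher in Negative than in Low, Cyp1a1 (4.31) and Nqo1 (1.98).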

How the data were processed

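The deposited table gives one value per gene symbol in each of the 12 libraries. Per the labels' protocols, the authors made the libraries from total RNA with ribosomal RNA removed and a SMARTer Pico kit; no aligner, gene annotation, genome build or read counter is named in the sources used here. The deposited values are a signal that the authors scaled per library: in each library 100% of values were whole multiples of one step, at a tolerance of 0.01 reads, so reads were recovered by dividing by that step. Depth was 11630042 to 17046944 reads per library. The table matched the labels by library name, with 0 unused columns.

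Groups were the 4 populations, 3 libraries each, in one limma 3.58.1 fit (R 4.3.3, log2(value + 1), empirical Bayes with a mean trend) with 6 comparisons, over genes with at least 10 in at least 3 libraries. Recovered reads were also tested with edgeR 4.0.16 (quasi-likelihood, TMM) and DESeq2 1.42.0: for Negative against Low these called 4353 genes higher and 5107 lower, and 4599 higher and 5077 lower, against 4446 and 5028 with limma. Other alternatives were pseudocount, filter, scaling, the fit and single libraries left out; the fit without Sublow was chosen after seeing the data. The fits were also run on simulated counts, with the same spread setting for all genes and changes in Negative only. That setting cannot speak for the wider spread of the Sublow libraries. Within each class the members named with values are those with the largest differences among called genes with a mean of at least 100, those higher in one population than in each other one, and those with the highest means; others were named after their values were seen. The members and gene lists were chosen with earlier results of these data known. Lengths, shared 50-base windows and neighbours come from GENCODE M21 and promoter windows from RefSeq (GRCm38.p6); no other coordinates are given. Some results are not reported here. Python 3.11.15, pandas 2.3.3 and matplotlib 3.10.9 made tables and figures.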

Additional observations from a re-analysis of the deposited data

How the results depend on the processing

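Of the calls among the 48 genes, 32 of 44 in Negative against Low, 20 of 28 in Sublow against Low, 21 of 29 in High against Low, 0 of 17 in Negative against Sublow, 38 of 43 in Negative against High and 37 of 38 in Sublow against High stayed past the threshold in every alternative run. Apart from genes that a filter removed, the cause of the changes below was not tested. With a mean of at least 50 as the filter, under which 39 of the 48 genes were tested, lower calls numbered 2 in Negative against Low, 0 in Sublow against Low, 1 in Negative against Sublow, 2 in Negative against High and 5 in Sublow against High. Sult1a1, Sult4a1, Ugt1a8 and Ugt1a10, lower in Negative than in Low in the main fit, had means below 50 and were left out by that filter. With equal totals, Gstt2 reversed in Negative against Low (log2 difference -0.046), Sublow against Low had 3 lower, and Negative against Sublow 10 higher and 1 lower. EdgeR called 11 higher and 1 lower in Negative against Sublow, and DESeq2 1 lower there and 2 in Sublow against Low. Fitting the 6 libraries alone gave 3 lower in Negative against Low and 0 higher in Negative against Sublow. Leaving out each library in turn gave 2 to 6 lower in Negative against Low, 0 to 2 lower in Sublow against Low, 12 to 21 lower in High against Low, and 4 to 26 higher and 0 to 1 lower in Negative against Sublow. The fit without the Sublow libraries, added after seeing the data, moved no count by over 1.5 times.

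Libraries share the letters A, B and C across populations, but the labels do not say what a letter marks. For that reason the letters were not taken to pair samples in the main fit, and the replicate block was an alternative. Same-letter libraries deviated together with r from 0.0521 to 0.341 over 18 pairs (mean 0.156), 5 of them at or under 0.1. Of the 12 libraries, 12 correlated best with their own letter. This is a hint of a shared effect from the data and not the design, and the main fit does not model it. With the replicate block the counts were 38 higher and 7 lower in Negative against Low, 30 and 3 in Sublow against Low, 11 and 21 in High against Low, 23 and 1 in Negative against Sublow, 35 and 8 in Negative against High, and 29 and 11 in Sublow against High. Depth limits Ugt2b1, Ugt1a8, Ugt1a10, Gsto2, Sult4a1 and Sult6b1, which rest on few reads in some populations.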
